A study of Danio rerio with 8 samples.

Results

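Primordial germ cells (PGCs) of pigu mutant zebrafish embryos were compared with those of wild type embryos at the bud stage, the end of gastrulation. A gene entered the comparison if 2 or more of the 4 bud libraries held it at 1 FPKM or above, which left 12281 of the 31200 gene symbols in the deposited table. FPKM corrects a gene's fragments for its length and for the size of the library. The bud groups were pigu_homo (homozygous mutant) and wild type, each with 2 libraries numbered as replicates, and nothing says whether these came from separate clutches. Both had received, as zygotes, GFP mRNA with the nanos1 3′ UTR, which lights up germ cells. Single-cell suspensions were made from the embryos, green cells were collected by mouth pipette, and their RNA was sequenced by SMART-seq2, a method that amplifies polyadenylated RNA from few cells. The labels name the Tuebingen and India strains and a kop:EGFP reporter line, but not which library used them, the pigu allele, or how many cells and embryos a library holds. Pools of the same genotypes from the shield stage, early gastrulation, complete the series.

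PGCs are set aside early in the zebrafish embryo by inherited germ plasm. They keep their own programme of RNA storage and translation while they migrate towards the gonad, guided by the chemokine Cxcl12 and its receptor Cxcr4b. The product of pigu belongs to GPI transamidase, an enzyme complex of the endoplasmic reticulum that joins a lipid anchor, glycosylphosphatidylinositol (GPI), to the end of certain surface proteins. At the bud stage the surrounding embryo is laying down neural plate, notochord, somite precursors and epidermis. Markers of these tissues were therefore followed beside germ cell genes.

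The mutant libraries were less alike than the wild type ones. Of the 12281 genes, 43.4% were listed at 0 in mutant replicate 1 and 5.55% in mutant replicate 2, against 5.94% and 1.13% in wild type replicates 1 and 2. Pearson's r of log2(FPKM + 1) across these genes was 0.61 between the mutant replicates and 0.89 between the wild type replicates. The share of FPKM from mitochondrial DNA was 37.3% and 17.3% in mutant replicates 1 and 2, against 30.5% and 17.8% in wild type. The mutant replicates lay within 2-fold of each other, on FPKM + 1, for 30.6% of genes, and the wild type replicates for 71.1%. A value of 0 can be a failed estimate, so such genes are described as listed at 0. Read depth is unknown, and in these pools fewer cells of a type and less RNA per cell cannot be told apart.

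**Figure D1:**
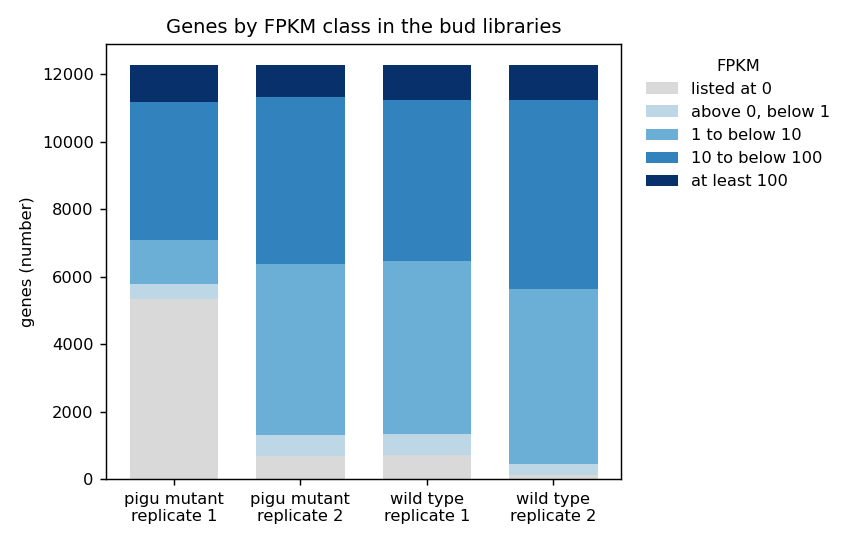
Number of the compared genes (y axis) by FPKM class in each bud library (x axis, pigu mutant replicates 1 and 2, then wild type replicates 1 and 2). The grey part, genes listed at 0, holds 5331 genes in mutant replicate 1 and 682 in mutant replicate 2, against 730 and 139 in wild type.

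No gene passed the test between mutant and wild type bud PGCs. limma called 0.0% of the genes at a Benjamini-Hochberg adjusted p under 0.05, and the smallest adjusted p was 0.78. With an unadjusted p under 0.05 stood 117 genes higher in the mutant (0.953%) and 614 lower (5.0%). The test is two-sided, so 5% of all the genes tested, also 614, is to be set against both directions together. After quantile normalization 549 genes were higher and 451 lower at that threshold. Both mutant libraries lay above both wild type libraries for 1128 genes (9.18%) and below both for 3732 (30.4%). The median log2 difference of all genes was −0.52, with 33.0% of the differences above 0 and 67.0% below. It was −1.07 for mutant replicate 1 alone and −0.18 for replicate 2 alone. Scaling by the median of ratios gave −0.34 and quantile normalization 0.01. For the 5740 genes that every bud library held at 1 FPKM or above, the median was −0.03. With 2 libraries against 2, an exact two-sided permutation test of a single gene cannot go below p = 0.333. "Higher" and "lower" below describe FPKM, not calls.

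Of 7112 genes with 5 FPKM or more in both wild type libraries, 26.6% were listed at 0 in mutant replicate 1, 1.39% in mutant replicate 2 and 0.97% (69 genes) in both. In the other direction, 7 of 4761 genes with at least 5 FPKM in both mutant libraries were listed at 0 in both wild type libraries.

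Both wild type libraries read the GPI transamidase genes, but of the mutant libraries only replicate 2 did. All 5 subunit genes were listed at 0 in mutant replicate 1, the library in which 43.4% of genes were. pigu stood at 0 and 7.32 FPKM in mutant PGCs, against 2.78 and 14.6 in wild type, so the groups overlap. Its log2 difference was −1.41, with a 95% interval from −5.12 to 2.29, and it was 0.12 without mutant replicate 1. pigk, the catalytic subunit, was the one subunit at or near 0 in both mutant libraries, with 0 and 0.18 FPKM against 4.48 and 8.83 (log2 difference −2.75, SE 1.11, limma adjusted p = 0.802). pigs stood at 0 and 24.4 FPKM in mutant PGCs, against 6.26 and 14.7 in wild type. pigt and gpaa1 likewise lay at 0 in mutant replicate 1 and within or above the wild type range in replicate 2 (3.43 and 12.199 FPKM). Without mutant replicate 1 the differences of pigs and gpaa1 turned to higher, 1.25 and 1.52.

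Enzymes that build the anchor varied in the same way between the mutant pools. Of 21 GPI synthesis and remodelling genes compared (23 in the table), 2 lay above and 4 below both wild type libraries. These are 9.52% and 19.05%, against 9.18% and 30.4% of all genes. piga, of the complex that starts the anchor, stood at 2.88 and 5.32 FPKM in mutant PGCs against 25.6 and 14.5 in wild type. For pigf and pigx, which act in later steps, mutant replicate 1 was low, at 2.18 and 1.13 FPKM, and replicate 2 stood at 38.2 and 30.3, against 50.7 to 63.5 and 37.7 to 64.7 in wild type. The list's median log2 difference was −1.05, against −0.52 for all genes, and relative to all genes of the same library it was −1.49 in mutant replicate 1 and 0.22 in replicate 2.

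Genes of proteins that carry a GPI anchor lay on both sides. The table holds 69 such genes, of which 24 were compared. Of these 4 lay above (16.7%) and 6 below (25%) both wild type libraries, against 9.18% and 30.4% of all genes. Their median lay 0.28 above that of all genes, at −0.19 in mutant replicate 1 and 0.77 in replicate 2. thy1, a small surface glycoprotein, was listed at 0 in both mutant libraries and stood at 26.6 and 29.2 FPKM in wild type (log2 difference −4.85, SE 1.54). The ectonucleotidase nt5e was also listed at 0 in both mutant libraries, with 2.59 and 3.71 FPKM in wild type. efna1b, an ephrin ligand, stood at 0 and 8.30 FPKM in mutant PGCs against 24.7 and 24.2. Opposite to these was gas1a, a co-receptor for Hedgehog, with 38.1 and 76.8 FPKM in mutant PGCs against 9.73 and 8.69.

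The 12 genes with the smallest p on the higher side were led by regulators of the nervous system and of patterning. prdm14, a transcriptional regulator that in mouse is needed for PGC formation, stood at 19.1 and 7.74 FPKM in mutant PGCs and was listed at 0 in both wild type libraries (log2 difference 3.73, SE 0.86). ntn1a, a netrin that guides axons, stood at 20.8 and 13.8 FPKM in mutant PGCs against 0.18 and 0.18 in wild type (3.93, SE 0.93). six3b, a homeobox gene of the forebrain, had 73.5 and 54.5 FPKM in mutant PGCs and was listed at 0 in wild type. Its log2 difference of 6.01 (SE 1.46) had a 95% interval from 2.90 to 9.12. her7, a repressor of the segmentation clock, stood at 253 and 94.2 FPKM against 2.89 and 11.3. All 12 lay apart from wild type in both mutant libraries, which the choice of genes requires, and each had a limma adjusted p of 0.78.

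The rest of the 12 varied in how close the mutant pools were. shroom3, which drives apical constriction of epithelia, stood at 5.58 and 4.95 FPKM in mutant PGCs and was listed at 0 in wild type. atp5if1a, the inhibitor of mitochondrial ATP synthase, stood at 436 and 524 FPKM against 90.1 and 77.2. Its replicates were close in both groups. rnd2 had 33.4 and 3.27 FPKM in the mutant pools, the metalloproteinase mmp23bb 32.2 and 3.03, and the apolipoprotein gene apoa4a 17.8 and 1.46, all listed at 0 in wild type. For these mutant replicate 1 was the higher pool, while for the neural bHLH gene olig4 it was replicate 2 (3.196 and 82.0 FPKM, listed at 0 in wild type). tmem45a stood at 43.8 and 12.8 FPKM against 0 and 0.80, and the flagellin receptor gene tlr5b at 19.1 and 6.40 against 0 and 1.29.

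The 12 on the lower side held genes of the secretory route, translation control and DNA repair. yipf5, a membrane protein of the Golgi, had the smallest p of all the genes named: 0 and 5.79 FPKM in mutant PGCs against 114 and 118 in wild type (log2 difference −5.49, SE 1.18, limma adjusted p = 0.78). eif4ebp1, a repressor of cap-dependent translation, stood at 0.58 and 1.38 FPKM against 37.1 and 67.9 (−4.72, SE 1.28). Both mutant pools were low for it, and close to each other. bnip4, of the BNIP3 family of mitophagy receptors, stood at 22.5 and 9.19 FPKM against 165 and 184 (−3.50, SE 0.95). fkbp14, a prolyl isomerase of the endoplasmic reticulum, stood at 0 and 8.31 FPKM against 63.5 and 50.4. mgmt, which removes alkyl groups from DNA, stood at 0 and 11.8 FPKM against 98.3 and 80.8. In both, mutant replicate 1 was listed at 0 and replicate 2 was read at a lower level than wild type.

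For the rest of these 12 the wild type levels ranged widely. dennd2da, a gene with a DENN domain, stood at 0 and 0.24 FPKM in mutant PGCs against 9.68 and 11.8. plekho1a, tmem170a and tatdn3 were listed at 0 in both mutant libraries and had 4.60 to 8.05 FPKM in wild type. isg15, a ubiquitin-like protein induced by interferon, was listed at 0 in both mutant libraries, but its wild type values of 4.50 and 91.9 FPKM also lay far apart. The claudin gene cldng stood at 0 and 8.16 FPKM against 52.7 and 29.6. znf1047, a zinc finger gene, was listed at 0 in both mutant pools against 20.1 and 27.4 FPKM.

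**Figure D2:**
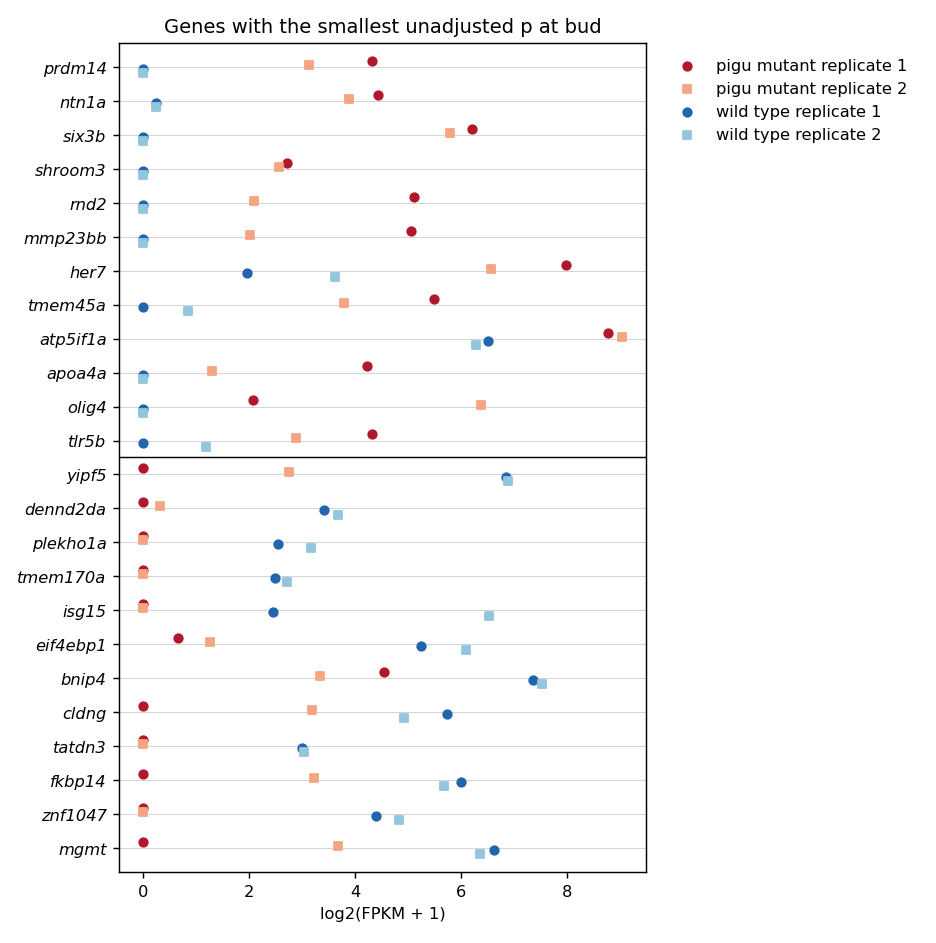
log2(FPKM + 1) (x axis) of the 24 named genes with the smallest unadjusted p (y axis, higher in the mutant above the line, lower below it) in pigu mutant replicates (red and orange) and wild type replicates (blue). Wild type points lie close together for most genes, as for yipf5 at 114 and 118 FPKM, while mutant points spread more, as for rnd2 at 33.4 and 3.27 FPKM.

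The spread between the mutant pools limits this ranking. So does the spread used by the fit, which takes in the shield libraries. There rnd2, mmp23bb, apoa4a, isg15, dennd2da, plekho1a and tmem170a were listed at 0 in every library, which lowers their SE at bud. The same limit holds for genes at or near 0 in every shield library. These were prdm14, ntn1a, shroom3 and tlr5b, with at most 0.46 FPKM there, and tatdn3, with at most 0.92. Genes with close replicates were therefore described apart from the ranking. In both groups the replicates lay within 2-fold for 3031 genes, of which 600 (19.8%) lay higher in both mutant libraries and 1526 (50.3%) lower. Choosing close replicates by itself makes overlap between groups less likely. These shares can therefore not be set against the 9.18% and 30.4% of all genes. On FPKM + 1, genes at or near 0 in both libraries of a group also count as close. The largest differences on the higher side again included six3b, followed by neurog1, a proneural factor, with 30.3 and 35.2 FPKM in mutant PGCs while listed at 0 in wild type. foxb1a, a forkhead gene of the neural tube, stood at 45.2 and 82.2 FPKM against 3.45 and 3.62 (log2 difference 3.77, SE 1.31). spry2, a feedback inhibitor of FGF signalling, stood at 60.3 and 57.0 FPKM against 8.59 and 7.64. The rest of this side had varied roles. rnf145a, a ubiquitin ligase, stood at 61.0 and 44.4 FPKM against 3.87 and 5.38, and zmynd19 at 110.0 and 94.0 against 14.2 and 14.6. large2, a glycosyltransferase that extends the sugars of dystroglycan, stood at 31.1 and 61.0 FPKM against 6.92 and 3.79. baz2ba, stox2b and eef2a.1 lay between 33.5 and 80.9 FPKM in the mutant pools and between 2.79 and 9.44 in wild type. Reads of eef2a.1, an elongation factor gene, may be shared with its close copy.

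On the lower side, 10 genes with close replicates are given, those with the largest differences and a wild type mean of at least 20 FPKM. They were eif4ebp1, znf1047 and thy1 and 7 further genes. otulina, a deubiquitinase of linear chains, stood at 0 and 0.23 FPKM in mutant PGCs against 16.0 and 29.0. akap12b, a scaffold of protein kinase A, stood at 0.76 and 1.50 FPKM against 35.0 and 52.0 (log2 difference −4.38, SE 1.58). alg1, which adds the first mannose of N-glycans on the endoplasmic reticulum, stood at 4.54 and 9.59 FPKM against 76.6 and 59.1 (−3.16, SE 1.03). Both mutant pools read alg1, so its difference did not rest on a value of 0. commd9 stood at 1.45 and 1.76 FPKM against 18.9 and 23.3, and nub1, a regulator of NEDD8, at 2.43 and 4.62 against 24.6 and 49.2. gig2o and the heme oxygenase gene hmox2b were listed at 0 in both mutant libraries, with 17.7 to 28.2 FPKM in wild type. gig2o and znf1047 belong to gene families with close copies, among which reads could be split.

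**Figure D3:**
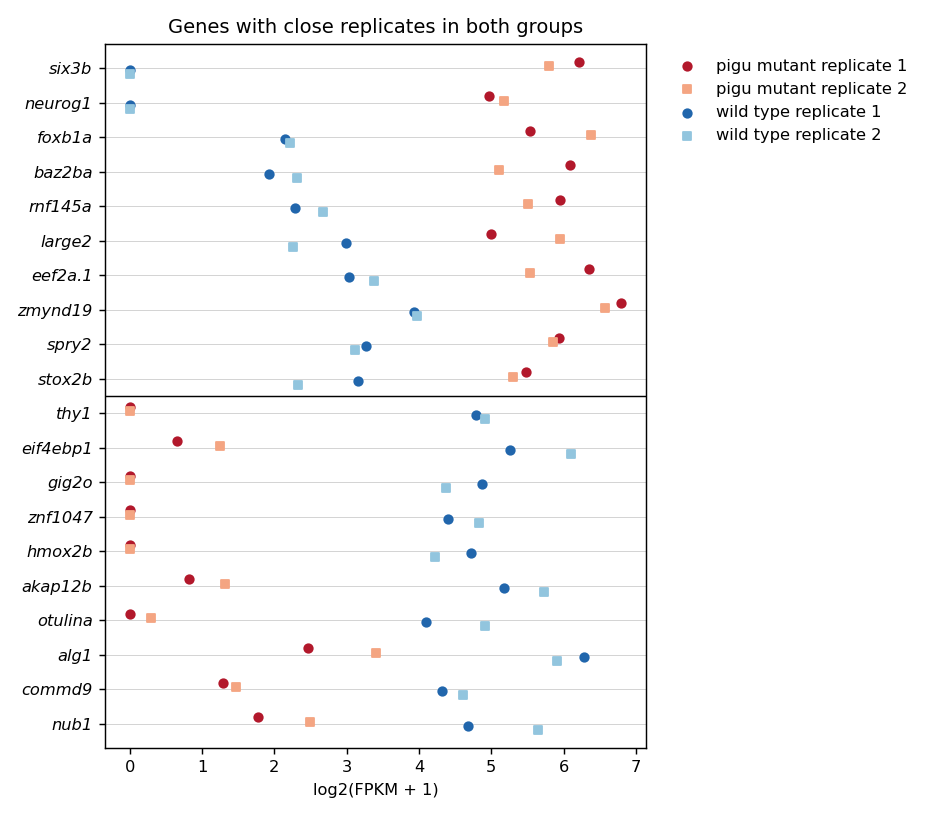
log2(FPKM + 1) (x axis) of the 20 genes with the largest differences among those whose replicates lay within 2-fold in both groups (y axis, higher in the mutant above the line, lower below it). Red and orange points are pigu mutant replicates and blue points wild type replicates, and the pairs do not overlap, as the choice requires. foxb1a stood at 45.2 and 82.2 FPKM in the mutant against 3.45 and 3.62.

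Genes listed at 0 in a whole group add a few names. Among genes listed at 0 in both mutant pools and at 5 FPKM or above in both wild type pools were, beside thy1, znf1047, gig2o and hmox2b, the translation initiation factor gene eif3hb (49.5 and 18.3 FPKM in wild type), glipr2l (30.0 and 11.3), NDUFAF8, which helps to assemble respiratory complex I (19.0 and 17.0), and urahb (24.7 and 11.4). atf4b, a transcription factor of the integrated stress response, joined prdm14, six3b and neurog1 as listed at 0 in both wild type pools, with 12.05 and 6.75 FPKM in the mutant.

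Neural plate regulators stood higher in mutant PGCs as a group, mostly through replicate 2. All 26 neural ectoderm genes compared had a log2 difference above 0, against 33.0% of all genes. For 11 of them (42.3%) both mutant libraries lay above both wild type libraries, and for 0 below, against 9.18% and 30.4% of all genes. Genes nearly silent in wild type could enter the comparison only by being read in the mutant, so the whole list is given too. Of 39 neural genes in the table, 35 had a higher mean FPKM in the mutant and 0 a lower one. A mean can rest on a single high pool, and the share of all genes with a higher mean FPKM was not computed. These limits hold for all whole-list counts below. The median of the 26 genes compared, relative to all genes of the library, was 0.97 in mutant replicate 1 and 4.14 in replicate 2. Not set against all genes, their median log2 difference from wild type was −0.10 and 3.97. In mutant replicate 1, 11 of the 26 were listed at 0. The midbrain-hindbrain gene her5 stood at 13.4 and 120.4 FPKM in mutant PGCs against 0.19 and 9.04, while zic1 stood at 29.1 and 5.09 against 0 and 1.34. The summed FPKM of the neural list was 330.2 and 2000 in mutant replicates 1 and 2, against 126.7 and 90.3 in wild type. None of its members passed limma.

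Mesoderm markers were likewise highest in mutant replicate 2 when summed. All 18 axial mesoderm genes in the table had a higher mean in the mutant. Of the 7 compared, 4 (57.1%) lay above both wild type libraries, against 9.18% of all genes. Here too, genes nearly silent in wild type entered only by being read in the mutant, which favours higher members. The same limit holds for the other tissue lists below. The hatching gland protease gene ctslb stood at 11.2 and 264 FPKM in mutant PGCs against 4.52 and 0.54, and frzb, a secreted Wnt inhibitor, at 0 and 166 against 1.29 and 0. tbxta, the brachyury gene of notochord and tail, stood at 31.0 and 131 FPKM against 16.1 and 22.6. The summed level of the list was 78.3 and 1321 FPKM in the mutant pools, against 45.9 and 39.1. In paraxial and lateral mesoderm, 3 of 19 genes lay above (15.8%) and 2 below (10.5%) both wild type libraries, against 9.18% and 30.4% of all genes. In the whole list 21 genes had a higher mean FPKM in the mutant and 4 a lower one. her1, a segmentation clock gene like her7, stood at 42.4 and 27.0 FPKM against 1.30 and 4.74. tbx6 was listed at 0 in mutant replicate 1 and stood at 105 in replicate 2, against 0 and 1.74 in wild type. Without mutant replicate 2 the log2 differences of frzb and tbx6 turned to −0.60 and −0.73. her1 and her7 were high in mutant replicate 1, in which tbx6 was listed at 0. That pool listed 10 of the 19 genes compared at 0, and tbx6 was at 0 in wild type replicate 1 too. What this means for the cells in the pool was not tested.

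Markers of outer layers split. Of 16 enveloping layer genes 3 lay above (18.75%) and 1 below (6.25%) both wild type libraries, against 9.18% and 30.4% of all genes. In the whole list 20 had a higher mean FPKM in the mutant and 3 a lower one. These genes were highest in mutant replicate 2, with krt18a.1 at 8.50 and 354 FPKM in the mutant pools against 13.5 and 1.57. The list summed to 243.3 and 1379 FPKM against 254.9 and 222.9. krt92 stood higher in both pools, 40.2 and 86.7 FPKM against 7.14 and 6.33. Of 19 epidermal genes, 7 (36.8%) were below both wild type libraries and 0 above, against 30.4% and 9.18% of all genes. Relative to all genes their median was −0.92 in mutant replicate 1 and 0.46 in replicate 2, so the pools disagreed. foxi1, a forkhead gene of the ventral ectoderm, stood at 0 and 1.198 FPKM in mutant PGCs against 56.4 and 66.2 (log2 difference −5.39, SE 1.78, limma adjusted p = 0.78). Yolk syncytial genes had 1 of 12 above (8.33%) and 0 below, and mesendoderm genes 2 of 8 above (25%) and 1 below (12.5%). In the whole lists 11 yolk syncytial genes had a higher mean FPKM in the mutant and 7 a lower one. For mesendoderm genes these were 11 and 2. What part cells of other tissues in the picked pools have in these differences was not tested.

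BMP pathway genes, many of them shared with the epidermal list, were not far from the background: 10 of 26 lay below both wild type libraries (38.5%) and 2 above (7.69%), against 30.4% and 9.18% of all genes. smad9, a transducer of BMP signals, stood at 0.36 and 11.6 FPKM in mutant PGCs against 37.8 and 72.3. The inhibitory smad7 stood at 0 and 8.86 FPKM against 26.4 and 30.1, while the other inhibitory gene smad6a stood at 25.6 and 6.32 against 0 and 0.84. ved, a ventral repressor and BMP target, stood at 452 and 92.7 FPKM against 794 and 1054, and gata2a at 27.9 and 8.22 against 54.9 and 73.2. Relative to all genes the list lay at −1.04 in mutant replicate 1 and 0.47 in replicate 2, so the pools disagreed on its direction.

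Relative to all genes, Nodal and retinoic acid targets stood higher mainly in mutant replicate 2 and FGF targets in both pools, while Wnt targets lay on both sides. dkk1b, a Wnt antagonist, stood at 153 and 52.7 FPKM in mutant PGCs against 9.55 and 5.13 (log2 difference 3.50, SE 1.31). lft1, a Nodal inhibitor and target, stood at 1.91 and 18.4 FPKM while listed at 0 in wild type, and the organizer gene gsc at 14.9 and 3.04 against 0 and 0.15. eomesa, a maternal T-box factor that acts with Nodal, lay the other way at 0 and 3.202 FPKM against 23.4 and 40.3. Of 13 Nodal genes compared 4 lay above (30.8%) and 1 below (7.69%) both wild type libraries. Of 17 FGF genes these were 5 (29.4%) and 1 (5.88%). For 12 retinoic acid genes they were 3 (25%) and 0, and for 19 Wnt genes 4 (21.05%) and 7 (36.8%). Of all genes 9.18% lay above and 30.4% below. As in the neural list, genes nearly silent in wild type were compared only if the mutant read them. In the whole lists, 18 Nodal genes had a higher mean FPKM in the mutant and 2 a lower one. For FGF these were 15 and 5, for retinoic acid 20 and 3 and for Wnt 14 and 8. By log2 difference the Wnt list lay the other way, with 7 of the 19 genes compared above 0 and 12 below. Relative to all genes, mutant replicates 1 and 2 lay at 0.29 and 2.92 for Nodal, at −0.05 and 3 for retinoic acid and at −0.69 and 1.55 for Wnt targets. The FGF list was similar in both pools only relative to all genes, at 1.24 and 1.38. Not set against all genes, its median log2 difference from wild type was 0.17 in mutant replicate 1 and larger in replicate 2. The median of all genes in mutant replicate 1 was −1.07. That pool listed 3 of the 17 FGF genes at 0, against 43.4% of all genes. The members of the FGF list were also divided. Of the 17 compared, 10 had a log2 difference above 0 and 7 below, against 33.0% and 67.0% of all genes. fgf17 stood at 17.4 and 16.1 FPKM against 4.15 and 0, while etv4 lay the other way, at 63.4 and 113 against 212 and 186. The FGF list summed to 598.6 and 838.8 FPKM in the mutant pools, against 586.1 and 629 in wild type. meis3, a cofactor of Hox proteins, stood at 56.1 and 110.0 FPKM against 16.0 and 14.9. axin2, a feedback inhibitor of Wnt signalling, stood at 0.34 and 39.0 FPKM against 66.0 and 71.7.

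**Figure D4:**
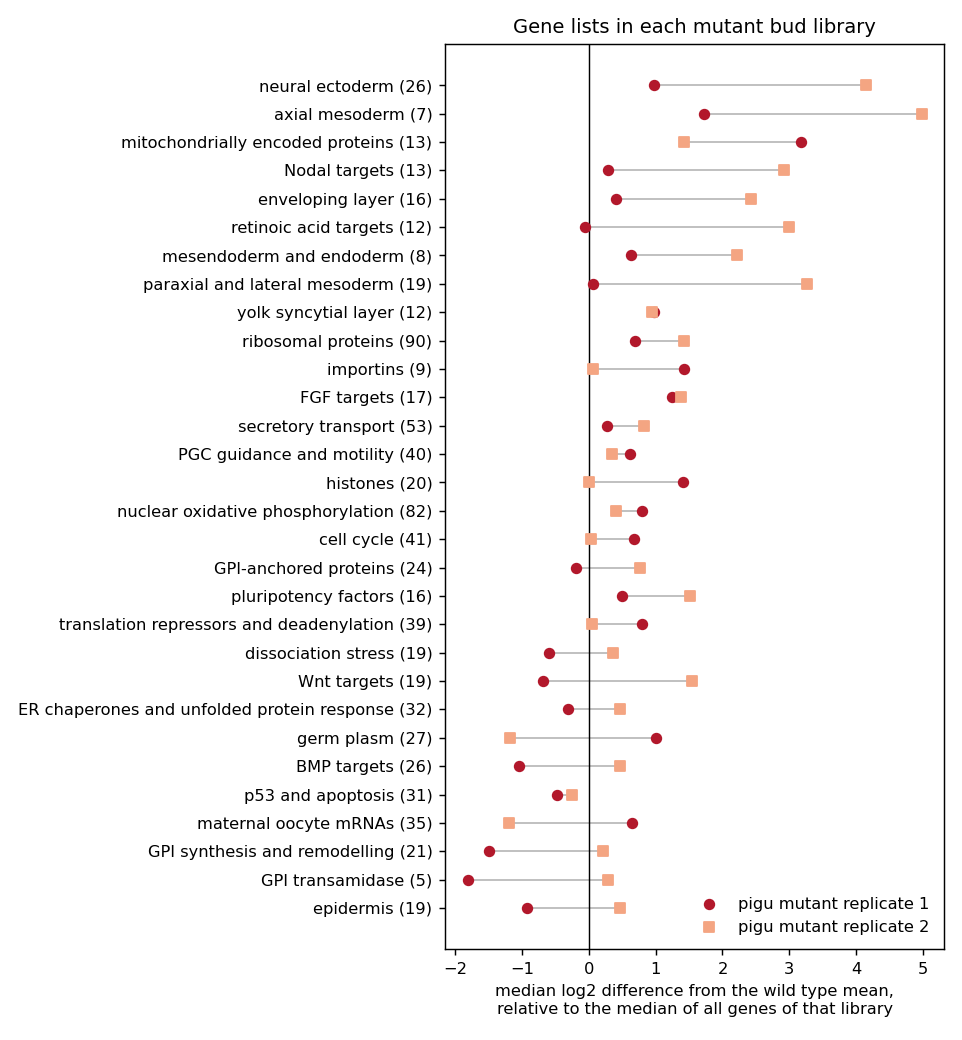
Median log2 difference of each gene list (y axis, genes compared in brackets) between a mutant bud library and the mean of the wild type libraries, minus the same median over all genes (x axis). Red circles are pigu mutant replicate 1 and orange squares replicate 2. Neural ectoderm lay at 0.97 and 4.14, germ plasm at 1.00 and −1.18, and the FGF targets at 1.24 and 1.38.

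Germ plasm transcripts were read in all 4 libraries, at uneven levels. The list summed to 19310 and 8515 FPKM in the mutant pools, against 11880 and 18540 in wild type. nanos3, an RNA-binding regulator of germ cell survival, chosen after its values were seen, stood at 7285 and 1518 FPKM in mutant PGCs against 3792 and 7247 in wild type. Its log2 difference of −0.66 turned to 0.47 without mutant replicate 2. The injected reporter carried a nanos 3′ UTR, and whether its reads were counted under nanos3 was not tested. Without nanos1 and nanos3 the list summed to 12012 and 6992 FPKM in the mutant pools, against 8089 and 11286 in wild type. Relative to all genes its median was 1.00 in mutant replicate 1 and −1.18 in replicate 2. Not set against all genes, its median log2 difference from wild type was −0.07 and −1.35. Of 27 members compared, 2 lay above and 8 below both wild type libraries (7.41% and 29.6%, near the 9.18% and 30.4% of all genes). buc, which organizes germ plasm in the oocyte, stood at 0 and 0.08 FPKM against 12.8 and 5.12. h1m, the maternal linker histone kept in germ cells, stood at 540 and 68.5 FPKM against 852 and 609.7. Mutant replicate 2, with the lowest germ plasm sum, was also the library with the highest neural, axial and enveloping layer sums.

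Transcripts left by the oocyte were lower in mutant PGCs for 29 of 35 maternal genes compared, 18 of them (51.4%) below both wild type libraries against 30.4% of all genes. The table holds 38 of them, 27 with a lower mean FPKM in the mutant and 9 with a higher one. The meiotic cyclin gene ccna1 stood at 0 and 5.09 FPKM against 22.6 and 22.6, the egg coat gene zp3b at 0 and 10.6 against 38.1 and 59.0, and pabpn1l at 112 and 44.3 against 273 and 198. h1m and cldng, given above, belong to this list too. As for germ plasm, the pools disagreed only relative to all genes (0.64 in mutant replicate 1 and −1.20 in replicate 2). Not set against all genes, the median log2 difference from wild type was −0.42 and −1.38, below 0 in each pool. The list summed to 2667 and 1173 FPKM in the mutant pools, against 3454 and 2884.

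Repressors of translation and the deadenylation machinery, which handle stored mRNA, lay below both wild type libraries in 10 of 39 genes (25.6%) and above in 5 (12.8%), near the 30.4% and 9.18% of all genes. The 5 with the smallest p in the list are all on the lower side. After eif4ebp1 came lsm14b, a component of stored mRNA particles, which was listed at 0 in both mutant libraries against 10.6 and 6.77 FPKM. cth1, a zinc finger protein of mRNA decay, stood at 6.65 and 4.81 FPKM against 36.9 and 20.3. btg3 stood at 0 and 21.5 FPKM against 38.0 and 49.5. The 5 that lay above wild type, named after their values were seen, were eif4ebp2, btg1, pum3, igf2bp1 and lsm14aa. Of these pum3 stood at 200.7 and 188 FPKM against 105 and 106. Of the importins, nuclear transport receptors, kpna7 stood at 23.4 and 6.44 FPKM against 122 and 112. Of the 9 importins 4 lay above and 4 below both wild type libraries (44.4% each), against 9.18% and 30.4% of all genes.

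Guidance and motility genes lay above both wild type libraries in 10 of 40 (25%) and below in 8 (20%), against 9.18% and 30.4% of all genes. Their median was 0.62 above all genes in mutant replicate 1 and 0.35 in replicate 2. actb1, cytoplasmic actin, stood at 1179.5 and 1091 FPKM in mutant PGCs against 323 and 265 (log2 difference 1.95, SE 0.68, limma adjusted p = 0.78), and profilin, pfn1, at 43.4 and 221 against 40.8 and 21.9. cxcr4b stood at 391 and 45.1 FPKM against 311 and 546. Its replicate 1 value lay within the wild type range and its replicate 2 value below it.

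Transcripts of mitochondrial protein genes stood higher in both mutant pools, and those of ribosomal proteins did so relative to all genes. All 13 mitochondrially encoded protein genes had a difference above 0, and 10 of them lay above both wild type libraries (76.9%). mt-nd6, a complex I subunit, stood at 777 and 431 FPKM against 172 and 134 (log2 difference 1.92, SE 0.72), and mt-nd1 at 1465 and 1053 against 495 and 231. The list lay 3.18 above all genes in mutant replicate 1 and 1.42 in replicate 2. The share of FPKM from all mitochondrial DNA, ribosomal RNA included, overlapped between the groups, as given above. Among 82 nuclear genes of oxidative phosphorylation, 20 lay above (24.4%) and 15 below (18.3%), against 9.18% and 30.4% of all genes. The higher ones included ATP synthase subunits, with atp5f1e at 635 and 949.7 FPKM against 260.4 and 153 and atp5md at 382 and 496 against 166 and 84.3, and uqcrb of complex III at 461 and 551 against 215 and 109. ndufb10 of complex I lay the other way, at 2.94 and 27.1 FPKM against 95.9 and 59.8. Of 90 ribosomal protein genes 14 lay above (15.6%) and 5 below (5.56%) both wild type libraries. Among the higher ones, rpl39 stood at 2055 and 7301 FPKM against 1359.7 and 987 and rps29 at 299.7 and 499 against 147 and 161. Their median log2 difference was −0.37 in mutant replicate 1 and 1.25 in replicate 2, or 0.69 and 1.43 above all genes of the library. Over both pools the list lay 0.88 above all genes, which became 0.10 after quantile normalization.

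The endoplasmic reticulum and stress lists were mixed. Secretory transport genes lay above both wild type libraries in 13 of 53 (24.5%) and below in 12 (22.6%), against 9.18% and 30.4% of all genes. Apart from yipf5, the cargo receptor tmed9 stood at 38.6 and 157 FPKM in mutant PGCs against 231 and 246, whereas srpra, the receptor of the signal recognition particle, stood at 48.0 and 57.8 against 7.09 and 8.37. ssr3, of the translocon, stood at 81.4 and 481 FPKM against 66.9 and 37.5. Among 32 chaperone and unfolded protein response genes, 4 lay above (12.5%) and 8 below (25%), the latter under the share of all genes. Among those below were creld2 (0.55 and 14.5 FPKM against 23.9 and 38.1) and dnajb11 (22.9 and 64.4 against 116 and 144). p53 and apoptosis genes lay below both wild type libraries in 6 of 31 (19.35%) and above in 1 (3.23%), both under the shares of all genes. The 1 above was the growth arrest gene gadd45ab (38.9 and 12.6 FPKM against 1.01 and 6.22). Of the 31, 26 had a log2 difference below 0, against 67.0% of all genes. Relative to all genes, the p53 list lay at −0.47 in mutant replicate 1 and −0.25 in replicate 2. Over both pools it lay at −0.49, which became −0.02 without wild type replicate 2. The caspase genes casp8 and casp3a stood at 0 and 0.37 and at 0 and 25.8 FPKM in the mutant pools, against 4.44 and 11.8 and 46.7 and 70.11. ier2a, an immediate early gene that cell handling can induce, stood at 96.6 and 121.9 FPKM against 24.1 and 33.9. The stress list as a whole had 2 of 19 genes above (10.5%) and 5 below (26.3%), near the shares of all genes. Of 41 cell cycle genes 7 lay above (17.1%) and 13 below (31.7%). Of 20 histone genes these were 3 (15%) and 4 (20%), and of 16 pluripotency factors 4 (25%) and 2 (12.5%). The last group included mycn at 55.7 and 151.7 FPKM against 17.3 and 21.6.

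The difference between genotypes at bud was not shown to differ from that at shield for any gene. limma called 0.0% of the genes for the interaction of genotype and stage, and 207 had an unadjusted p under 0.05. Of the 12 genes named as higher at bud, 3 had a shield difference above 0, and atp5if1a was apart from wild type at shield too (3.03, SE 0.75). Most of the others could hardly differ at shield. rnd2, mmp23bb and apoa4a were listed at 0 in every shield library, and prdm14, ntn1a, shroom3 and tlr5b had at most 0.46 FPKM there. Of the 12 lower ones, 7 had a shield difference below 0, and 6 of these also had both mutant shield libraries below both wild type ones. Among the rest, isg15, dennd2da, plekho1a and tmem170a were listed at 0 in every shield library and could not differ there. dkk1b stood at 2.65 and 0.34 FPKM in mutant shield PGCs against 44.3 and 21.7 in wild type shield, opposite to its direction at bud (interaction 7.36, SE 1.85, limma adjusted p = 1.00). zmynd19 also had a shield difference below 0 (−1.85, SE 1.25), but mainly through mutant shield replicate 1. It stood at 1.32 and 23.1 FPKM in mutant shield against 25.8 and 26.1, so replicate 2 was near wild type. Several genes low in mutant bud PGCs had close values at shield, among them alg1 (36.6 and 43.2 FPKM in mutant shield against 34.0 and 43.2) and NDUFAF8 (25.5 and 29.5 against 41.7 and 23.6). In all, 99 genes lay higher at bud and lower at shield in every library and 129 the reverse, while 56 lay higher and 583 lower at both stages. At shield 3.84% of all genes lay higher and 12.3% lower in every library.

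**Figure D5:**
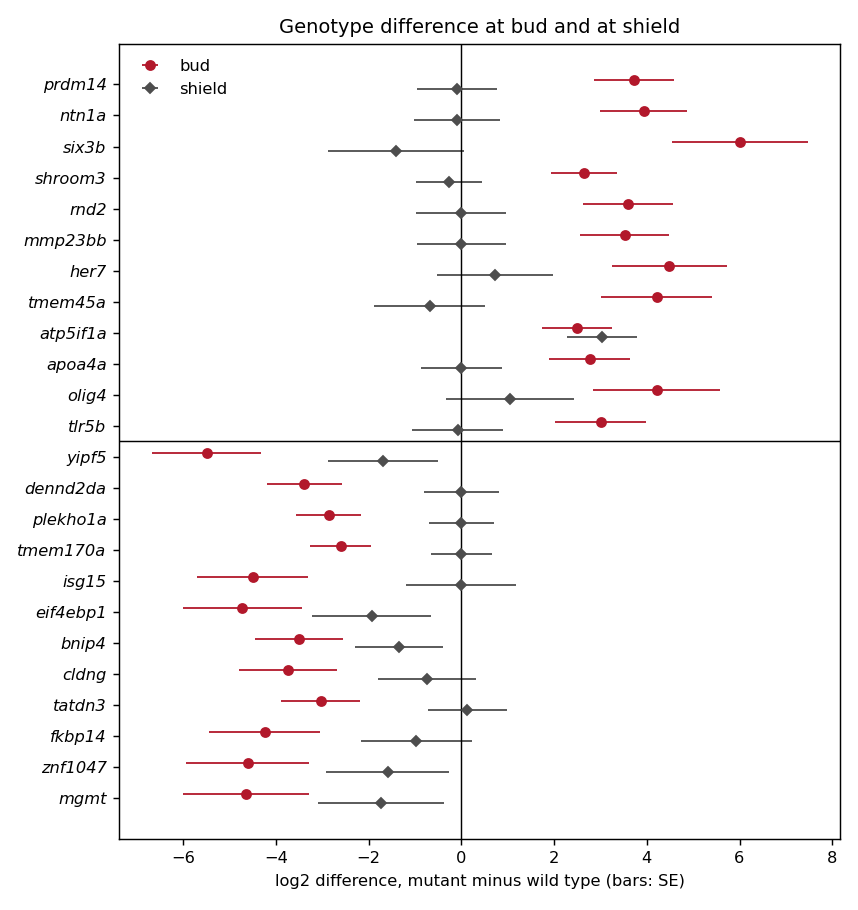
log2 difference of mutant minus wild type PGCs (x axis, bars SE from limma) at bud (red circles) and at shield (grey diamonds) for the 24 named genes with the smallest unadjusted p at bud (y axis). six3b lay at 6.01 at bud and −1.41 at shield, and her7 at 4.49 and 0.73.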

How the data were processed

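The 8 libraries fall into 4 groups of 2 by their titles, and labels give no batch. Per the submitters' processing notes, the authors used Trim Galore, STAR 2.5.3a, Cufflinks 2.2.1 and build danRer11. The deposited table holds FPKM by gene symbol, with no read counts, so depth is unknown. The annotation is not given in the sources used here. The highest entry was kept for 545 symbols with several, and 2 entries with missing values were dropped.

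Genes with FPKM of at least 1 in 2 bud libraries were tested as log2(FPKM + 1), which understates changes of low genes. One limma-trend fit (limma 3.58.1, R 4.3.3) of all 8 libraries as 4 group means shared the spread (4 residual degrees of freedom, 14.7 after moderation). Tests were two-sided, Benjamini-Hochberg adjusted. P-values measure the spread between these pools. The fit was tested on simulated data whose spread was equal in all groups and smaller than in the bud libraries. There the log2 difference between replicates had an SD of 2.28 in mutant and 0.99 in wild type. The simulation therefore cannot show how the fit performs at that spread. Plots used Python 3.11.15 with matplotlib 3.10.9.

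Members and the 30 gene lists were chosen with earlier results of these data known, and lists were not tested. Genes were named by a rule: the transamidase subunits; 12 each way with the smallest p, no overlap and a mean of at least 5 FPKM; 10 each way with the largest difference, replicates within 2-fold and a mean of at least 20 FPKM; up to 8 each way listed at 0 in both libraries of one group and at least at 5 FPKM in both of the other; and members from the 5 with the smallest p in each list. Unnamed loci were left out. Alternatives changed the pseudocount, filter, scaling, samples, moderation, library weights, merging of entries, a replicate block and the libraries included.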

Additional observations from a re-analysis of the deposited data

How the results depend on the processing

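limma called 0 genes at bud under every alternative run, and 0 for the interaction under each that held the shield libraries, and the smallest adjusted p at bud over them ranged from 0.0805 to 0.999. Counts at an unadjusted p under 0.05 moved by over 1.5 times as follows, against 117 higher and 614 lower. Higher genes numbered 76 with a pseudocount of 0.1, 39 with FPKM of at least 1 in all 4 bud libraries, 63 with FPKM of at least 5 in 2 and 549 after quantile normalization. Lower genes numbered 62 and 335 under those filters. Leaving out each bud library gave 42 to 324 higher and 286 to 1569 lower, with 324 higher without mutant replicate 1, 1569 lower without mutant replicate 2, 42 higher without wild type replicate 1 and 286 lower without wild type replicate 2. Genes apart as higher numbered 901 to 1484 with all libraries and 1473 to 3895 when one was left out, which by construction leaves fewer values to overlap. Genes apart as lower numbered 1181 and 2443 under the filters on all 4 and at FPKM of 5, and 4425 to 7346 without a library.

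Replicate numbers 1 and 2 occur in every group, but nothing says that they pair samples. The replicate difference in mutant bud had a correlation of 0.03 with that in wild type bud across genes. With a replicate block 184 genes were higher and 1204 lower at an unadjusted p under 0.05, and 0 were called.

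Directions were checked for 117 named genes, but not for etv4, eif4ebp2, btg1, pum3, igf2bp1 and lsm14aa. They turned for the following genes, and the cause was not tested. pigs (0.16) and gpaa1 (0.88) turned after quantile normalization, gpaa1 with a pseudocount of 5 (0.08). With one library left out the log2 difference ranged from −2.94 to 0.12 for pigu, −3.42 to 1.25 for pigs, −2.20 to 1.52 for gpaa1 (0.25 without wild type replicate 2), −5.66 to 0.87 for pdia3, −1.79 to 0.47 for nanos3, −0.60 to 6.79 for frzb, −0.73 to 6 for tbx6 and −0.30 to 4.60 for sox3. These extremes came without mutant replicate 1 or 2. List medians relative to all genes changed sign for 4 of 30 lists without mutant replicate 1 and for 7 without mutant replicate 2, 3 after quantile normalization and 0 after median-of-ratios scaling. The lists that turned without mutant replicate 2 included germ plasm (1.00) and maternal mRNAs (0.64), and without replicate 1 BMP (0.47) and epidermal genes (0.46).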
